A study of Mus musculus with 15 samples.

Results

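The receptors for IL-2, IL-4, IL-7, IL-9, IL-15 and IL-21 are built around the common gamma chain, and their transcripts were followed here in mouse CD8 T cells grown with some of these same cytokines. The 8 receptor genes Il2ra, Il2rb, Il2rg, Il7r, Il21r, Il4ra, Il15ra and Il9r were taken by symbol from a table of 23284 entries. All 8 were found, and 7 were expressed well enough to be tested, the exception being Il9r. Expression is given as FPKM, fragments scaled by transcript length and by library size, which lets the levels of different genes be set side by side.

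Every library came from OT-I mice, whose CD8 T cells all carry a rearranged T cell receptor transgene recognising the SIINFEKL peptide of ovalbumin on H-2Kb, so the clonal specificity was fixed and no polyclonal response was sampled. CD8 T cells enriched by negative selection were stimulated with dendritic cells derived from bone marrow and loaded with that peptide, then cultured for 14 days. One culture received IL-2. The other received a cocktail that combined the cytokines IL-21 and IL-7 with TWS119, an inhibitor of glycogen synthase kinase 3, and with 2-deoxyglucose, a glucose analogue that blocks glycolysis. CD44, which is raised on antigen-experienced cells, and CD62L, the lymph node homing receptor, were used for sorting. The groups were IL-2 CD44+CD62L- cells, cocktail CD44+CD62L-, cocktail CD44+CD62L+ and cocktail CD44loCD62L+ cells, all at 14 days, and uncultured naive cells at day 0, whose gate is CD44loCD62L+ in the sample labels but CD44-CD62L+ in the design text. The age and sex of the mice are not given. Each group was sequenced as 3 technical replicates, making 15 libraries. Every SD and p-value below therefore measures the spread between libraries and not between mice or cultures. Cytokine, small molecules and time in culture were not varied separately, and their parts cannot be told apart.

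The common gamma chain, encoded by Il2rg, pairs with a private chain that sets which cytokine is bound. IL-2 uses the alpha chain CD25 (Il2ra) to raise affinity and the beta chain CD122 (Il2rb) to signal, IL-15 uses the same beta chain with its own alpha chain (Il15ra), and IL-7, IL-21, IL-4 and IL-9 each use a private chain (Il7r, Il21r, Il4ra and Il9r). JAK1 bound to the private chain and JAK3 bound to the gamma chain phosphorylate STAT proteins, mainly STAT5 for IL-2, IL-7 and IL-15, STAT3 for IL-21 and STAT6 for IL-4. In CD8 T cells, IL-7 receptor marks naive and memory cells, whereas CD25 is raised after antigen encounter.

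The genes lie at 6 places in the genome, with 2 neighbouring pairs. In the GENCODE annotation of GRCm38, Il2ra (chr2:11642807-11693193, plus strand) is followed by Il15ra (chr2:11705290-11734317, plus strand) as the next coding gene, with 12096 bp between them. Il4ra (chr7:125552120-125579474, plus strand) is followed in the same way by Il21r (chr7:125603429-125633570, plus strand), with a gap of 23954 bp. Il7r (chr15:9505788-9530176) and Il2rb (chr15:78479256-78495271) lie far apart on the minus strand of the same chromosome. Il9r is at chr11:32187541-32200279 and Il2rg at chrX:101264378-101268255, both on the minus strand. Exons of Il2rg overlap those of Gm20489, a coding gene on the same strand, and Il4ra overlaps the antisense gene Gm44876. Neither overlapping gene has an entry in the table, so reads could not be divided between them and the receptors here.

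Promoter windows from 250 bases before to 50 after the start site were read from RefSeq (build GRCm38.p6), which held 8 windows for 7 of the 8 genes, Il2rb being absent. They were searched on both strands for TTCNNNGAA, the palindrome bound by STAT5, which reads the same on both strands. It was present in 8.30% of 32851 windows of the same length and in 1 of the 8 receptor windows, that of Il7r. The forkhead motif TGTTTAC, or GTAAACA on the other strand, was in 3.65% of all windows and in 1 of 8, that of Il21r. An ETS motif, ACTTCCTG or CAGGAAGT, chosen after the promoter sequences had been read, was in 3.33% of all windows and again in 1 of 8, that of Il7r. The stretches are shown because Il7r and Il2ra had the widest ranges of level among the genes tested and Il21r encodes the receptor of the other cocktail cytokine. Each is written along the gene's own strand with the motif in capitals. The Il2ra stretch holds no exact match to any of the 3 motifs, but it holds the ETS motif with its last base changed. The stretch around the Il7r palindrome overlaps an exon in GENCODE.
Il7r, STAT5-type palindrome 142 bases before the start, chr15:9530000-9530028, minus strand: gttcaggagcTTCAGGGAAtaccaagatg
Il7r, ETS motif 49 bases before the start, chr15:9529878-9529965, minus strand: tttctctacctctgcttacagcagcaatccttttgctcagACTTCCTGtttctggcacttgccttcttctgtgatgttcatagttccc
Il21r, forkhead motif 38 bases before the start, chr7:125603351-125603428, plus strand: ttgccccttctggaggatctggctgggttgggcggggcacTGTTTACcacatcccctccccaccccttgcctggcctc
Il2ra, no motif, chr2:11642692-11642791, plus strand: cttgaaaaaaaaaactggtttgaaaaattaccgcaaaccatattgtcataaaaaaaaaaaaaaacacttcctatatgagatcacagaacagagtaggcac
A match of letters is a description of the sequence only, and binding was not measured.

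The 15 libraries had FPKM sums of 669341 to 781949 and 10006 to 10473 genes at 1 FPKM or more. Absolute depth is unknown, but the smallest steps of low values put the fragments behind 1 FPKM at 1 to 1.01 in naive libraries, 1.01 to 1.03 in IL-2, 1.08 to 1.11 in the CD44+ cocktail and 1.25 to 1.27 in the cocktail CD44loCD62L+ libraries, relative to the lowest library. The cells carried the markers of their label: all 9 CD8 T cell markers were present in each group, summing to 2410 to 2434 FPKM in IL-2 libraries, 2711 to 2995 FPKM in the cocktail libraries and 4020 to 4029 FPKM in naive libraries. In these bulk samples, fewer cells of a type and less RNA per cell cannot be told apart. The 7 B cell markers summed to 42.5 to 44.1 FPKM in naive libraries and 2.09 to 6.84 FPKM in cultured libraries, where Ms4a1 and Pax5 were listed at 0 throughout. The 16 dendritic cell and macrophage markers summed to 136 to 137 FPKM in IL-2 and 195 to 204 in the CD44+ cocktail libraries. The sums were 158 to 163 in the cocktail CD44loCD62L+ and 183 to 185 in naive libraries. Cst3 alone had means of 129, 141 to 146, 110 and 64.2 FPKM in the same order. It made up most of each sum in cultured cells, so the sums do not order the groups by the other markers. Clec9a was listed at 0 in every cultured group. The 5 NK cell markers summed to 5.63 to 12.3 FPKM and the 5 CD4 and regulatory T cell markers to 8.56 to 23.6 FPKM over all libraries.

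Some of the chains were high in IL-2 cells and others were low in them. In the IL-2 CD44+CD62L- cells Il2ra and Il2rb stood above every other group and Il7r, Il4ra and Il2rg stood below every other group. The cocktail cells lay between IL-2 and naive cells for Il2ra, Il2rb, Il2rg and Il7r. Il21r and Il15ra were ordered differently, with Il21r lowest and Il15ra highest in cocktail cells. The plot of levels by library shows how small the spread within a group was, with an SD between 0.135% and 9.24% of the mean in each group for the 7 genes tested.

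**Figure D1:**
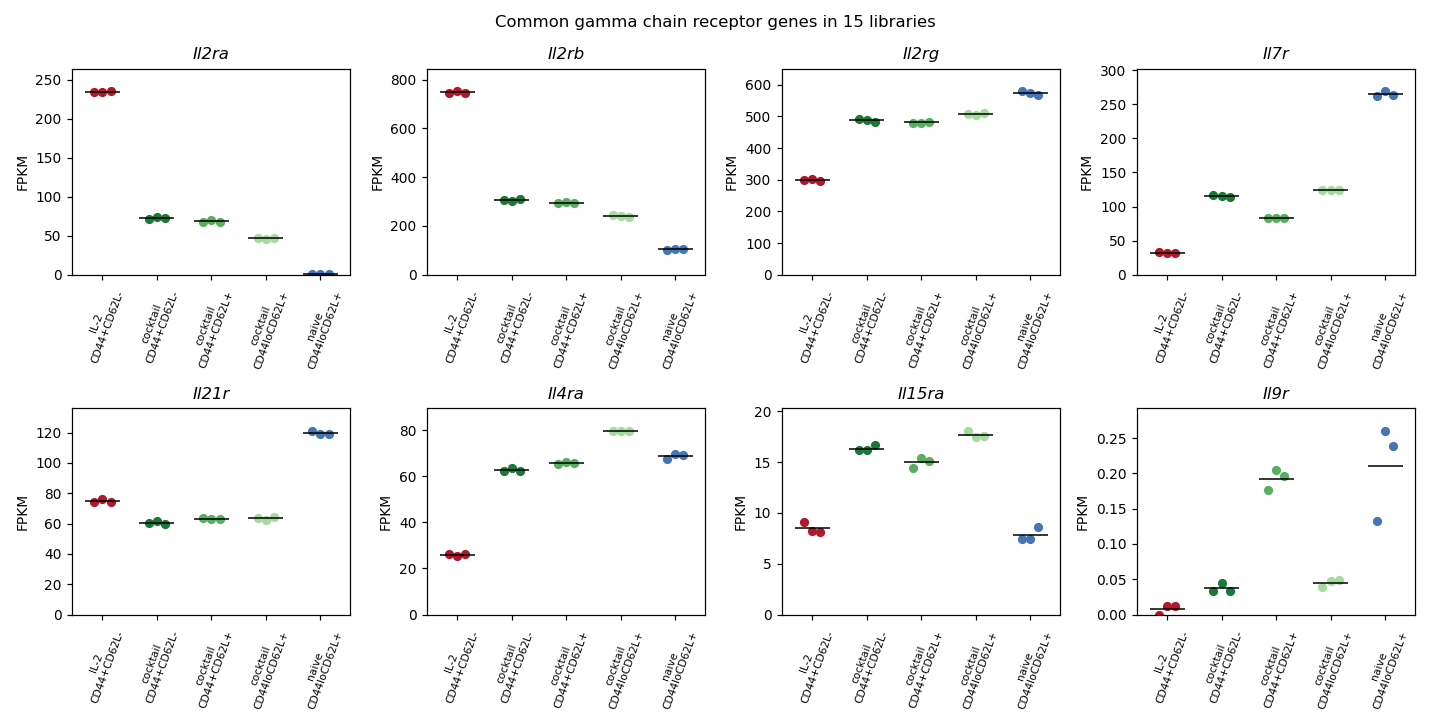
FPKM (vertical axes, each from 0) of the 8 common gamma chain receptor genes in 15 libraries, with each point a technical replicate and each bar the mean of 3 in a sorted group (horizontal axes). Il2ra and Il2rb are highest in IL-2 cells (means 235 and 749 FPKM), Il7r and Il2rg in naive cells (266 and 575 FPKM), and Il9r stays below 0.3 FPKM in every library.

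Il2rg, the chain shared by all 6 receptors, was among the most abundant transcripts of each group, above 97.2% of the genes tested in IL-2 cells and above 98.7% in naive cells. Naive libraries held 582, 574 and 569 FPKM and cocktail CD44loCD62L+ libraries 509, 504 and 511 FPKM. The cocktail CD44+CD62L- libraries held 491, 488 and 483 FPKM, and the cocktail CD44+CD62L+ libraries 480, 480 and 484 FPKM. The last pair overlapped, with an adjusted p of 0.170 in limma, and the naive and CD44lo groups lay apart from them and from each other. IL-2 libraries were lower than all others at 298, 303 and 297 FPKM. From naive to IL-2 cells the mean went from 575 ± 6.27 to 299 ± 3.25 FPKM (SD, n = 3 each), a log2 fold change of -0.94 ± 0.01 (SE), which lies under the minimum of 1 in size that a call required here. After quantile normalization it was -1.46, past that minimum.

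Il2ra had the widest range of the 8 genes. Naive libraries held 0.534, 0.541 and 0.456 FPKM, while IL-2 libraries held 234, 234 and 236 FPKM. In the cocktail, CD44+CD62L- libraries held 71.8, 73.4 and 72.7 FPKM, CD44+CD62L+ libraries 67.1, 69.9 and 67.9 FPKM, and CD44loCD62L+ libraries 46.5, 45.8 and 47.6 FPKM. No groups overlapped, and the order was IL-2, cocktail CD44+CD62L-, cocktail CD44+CD62L+, cocktail CD44loCD62L+, naive. The IL-2 mean was 460 times the naive mean and 3.23 times the cocktail CD44+CD62L- mean. In limma, Il2ra was lower in cocktail CD44+CD62L- than in IL-2 cells by a log2 fold change of -1.68 ± 0.02 (SE, adjusted p = 4.31e-16). Il2ra was at or above 1 FPKM only in cultured groups, so passing the filter through those groups fixed in advance that it would differ from naive cells. CD25 also marks regulatory T cells. Foxp3, their defining factor, had a mean of 1.51 FPKM in IL-2 cells and 0.0180 to 0.158 FPKM in the other groups, and Cd4 was at 0.00359 to 0.305 FPKM. Foxp3 passed the filter only through IL-2 cells, so its levels are given as description, and its part in the Il2ra result was not tested.

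Il2rb, the signalling chain shared by IL-2 and IL-15, followed the same order over a narrower range. IL-2 libraries held 746, 755 and 747 FPKM, and naive libraries 102, 104 and 104 FPKM. Cocktail CD44+CD62L- libraries held 308, 303 and 310 FPKM, CD44+CD62L+ libraries 295, 297 and 295 FPKM, and CD44loCD62L+ libraries 245, 240 and 238 FPKM. No groups overlapped. IL-2 cells were 2.44-fold above cocktail CD44+CD62L- cells (log2 fold change -1.28 ± 0.01 for cocktail minus IL-2, limma adjusted p = 1.22e-17) and 7.23-fold above naive cells. Naive cells already held Il2rb above 92.9% of genes tested, unlike Il2ra, which was above 7.90%.

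Il15ra, the chain that binds IL-15 and presents it to neighbouring cells, was the lowest of the 7 genes tested in each cultured group. In the cocktail groups it still lay above 53.3% to 59.2% of all genes tested. It reached 18.1, 17.4 and 17.6 FPKM in cocktail CD44loCD62L+ libraries and 16.2, 16.2 and 16.7 FPKM in cocktail CD44+CD62L- libraries. The cocktail CD44+CD62L+ libraries held 14.4, 15.4 and 15.1 FPKM. IL-2 libraries at 9.14, 8.22 and 8.08 FPKM and naive libraries at 7.47, 7.47 and 8.62 FPKM overlapped (limma adjusted p = 0.0785). The cocktail groups therefore lay above both. The log2 fold changes over IL-2 cells were 0.87 ± 0.05, 0.75 ± 0.05 and 0.98 ± 0.05 in the CD44+CD62L-, CD44+CD62L+ and CD44loCD62L+ cells, all short of a call, although the last reached 1.03 without IL-2 replicate 1. Il15ra rose past the threshold only between naive and cocktail CD44loCD62L+ cells, at 1.08 ± 0.05 (limma adjusted p = 1.05e-10), and that call is lost with a pseudocount of 5 (0.82). For cocktail CD44+CD62L- against naive cells it was 0.97 ± 0.05, and 1.03 without naive replicate 3. Il15ra is the next coding gene after Il2ra, and its highest group was not the highest group of Il2ra. IL-15 receptor alpha is also made by dendritic cells and macrophages. Of their 9 markers tested, 4 were called higher and 0 lower in cocktail CD44+CD62L- than in IL-2 cells. Over all genes 7.85% were called. The 4 were Lyz2 (21.3 against 0.427 FPKM), H2-Aa, H2-Ab1 and Cd74. Each was under 1 FPKM in IL-2 cells and passed the filter only through other groups, so the count is given as description. Itgax (0.653 against 1.56 FPKM) and Cd68 (3.23 against 3.55 FPKM) were lower without a call. Against naive cells, where Il15ra was also low, the same cocktail cells had 2 markers called higher, Lyz2 and Cst3. The 3 called lower were H2-Aa, H2-Eb1 and Cd74 (12.5 against 57.3 FPKM), where 22.5% of all genes were called. H2-Eb1 was under 1 FPKM in these cocktail cells and passed the filter through other groups, so this count is description too. The part of these markers in the Il15ra values was not tested.

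Il7r, the alpha chain of the receptor for IL-7, a cytokine of the cocktail, was highest in cells that had never been cultured. Naive libraries held 263, 270 and 264 FPKM, and IL-2 libraries 33.0, 31.6 and 32.1 FPKM, which is 8.23-fold lower on the means. Cocktail CD44loCD62L+ libraries held 124, 125 and 124 FPKM, CD44+CD62L- libraries 117, 116 and 115 FPKM, and CD44+CD62L+ libraries 82.7, 83.7 and 82.5 FPKM. No groups overlapped, and every cocktail library lay above every IL-2 library and below every naive library. Il7r was called higher in each cocktail group than in IL-2 cells, with log2 fold changes of 1.81 ± 0.01 (CD44+CD62L-), 1.34 ± 0.01 (CD44+CD62L+) and 1.92 ± 0.01 (CD44loCD62L+) and a limma adjusted p of 3.87e-18 for the first of these. It fell in each cultured group relative to naive cells, by 3.00 on the log2 scale in IL-2 cells and by 1.19, 1.67 and 1.09 in the same order of cocktail groups. Among the CD44+ cocktail cells, those that kept CD62L held less Il7r than those without it, 82.98 ± 0.624 against 116 ± 1.02 FPKM (log2 fold change -0.47 ± 0.01, limma adjusted p = 1.38e-10), a separation smaller than a call required.

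Il2ra and Il7r thus ran in opposite orders between naive and IL-2 cells, which the plot of the pair shows. The ratio of Il7r to Il2ra FPKM was 0.141, 0.135 and 0.136 in IL-2 libraries. It was 1.23, 1.20 and 1.21 in cocktail CD44+CD62L+, 1.63, 1.57 and 1.58 in cocktail CD44+CD62L- and 2.68, 2.72 and 2.61 in cocktail CD44loCD62L+ libraries. In naive libraries it was 492, 499 and 578. All 5 groups were separate in this ratio, and IL-2 libraries alone had more Il2ra than Il7r transcript per length.

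**Figure D2:**
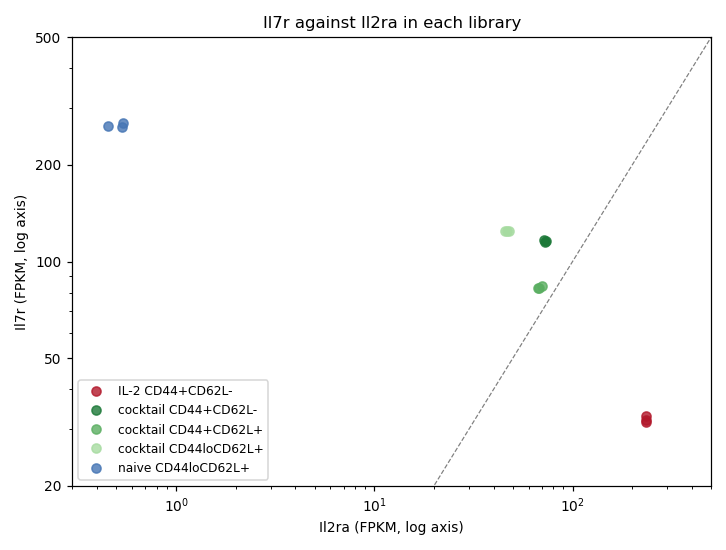
Il7r (vertical log axis, FPKM) against Il2ra (horizontal log axis, FPKM) in each of 15 libraries, coloured by group, with a dashed line where the levels are equal. The 3 IL-2 libraries lie below the line with ratios near 0.14, the 9 cocktail libraries above it with ratios of 1.20 to 2.72, and the 3 naive libraries at the far left with Il2ra under 1 FPKM.

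Il21r encodes the receptor for the other cocktail cytokine and did not follow Il7r. Naive libraries held 121, 119 and 119 FPKM, and IL-2 libraries 74.4, 76.5 and 74.1 FPKM. Cocktail CD44loCD62L+ libraries held 63.8, 62.2 and 64.3 FPKM and overlapped the CD44+CD62L+ libraries at 63.7, 63.1 and 63.2 FPKM (limma adjusted p = 0.897). The cocktail CD44+CD62L- libraries were lowest at 60.4, 61.5 and 60.0 FPKM. Cells grown with IL-21 therefore held slightly less Il21r than cells grown with IL-2, by log2 fold changes of -0.30 ± 0.02, -0.24 ± 0.02 and -0.24 ± 0.02, none of which was a call. Differences from naive cells were -0.67 ± 0.02 in IL-2 cells and -0.97 ± 0.02, -0.91 ± 0.02 and -0.91 ± 0.02 in the cocktail groups, again short of a call. Quantile normalization moved the CD44+CD62L- and CD44+CD62L+ values past it, to -1.11 and -1.03. B cells also express the IL-21, IL-4 and gamma chains. Of the 7 B cell markers, all but Cd79b passed the filter only through naive cells. Cd79b was at 22.6 FPKM in naive and 6.36 FPKM in IL-2 cells, and the part of these markers in the naive levels of these receptors was not tested.

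Il4ra, the IL-4 binding chain, was set apart by low values in IL-2 cells. IL-2 libraries held 26.4, 25.5 and 26.3 FPKM. Cocktail CD44+CD62L- libraries held 62.4, 63.7 and 62.5 FPKM, CD44+CD62L+ libraries 65.3, 66.0 and 65.6 FPKM, and naive libraries 67.7, 69.7 and 69.3 FPKM. The cocktail CD44loCD62L+ libraries were highest at 79.7, 79.9 and 79.7 FPKM, and no groups overlapped. Il4ra was called higher in each cocktail group than in IL-2 cells (log2 fold changes 1.24 ± 0.02, 1.30 ± 0.02 and 1.58 ± 0.02, limma adjusted p = 1.73e-16 for CD44+CD62L- cells). It fell by 1.37 from naive to IL-2 cells, whereas cocktail cells were within -0.13 to 0.21 of naive cells on the log2 scale. No culture is labelled as having received IL-4. Il4ra and its neighbour Il21r had different lowest groups, IL-2 cells for Il4ra and cocktail CD44+CD62L- cells for Il21r.

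Il9r, the IL-9 binding chain, stayed under 1 FPKM in all libraries and was not tested. One fragment was worth about 0.01 FPKM of Il9r, and the values came out near whole fragments, at most 0.104 away, if the smallest step in low genes is a single fragment. On that reading naive libraries held 11, 22 and 20 fragments, and cocktail CD44+CD62L+ libraries 16, 19 and 18. Cocktail CD44loCD62L+ libraries held 4, 5 and 5, cocktail CD44+CD62L- libraries 3, 4 and 3, and IL-2 libraries 0, 1 and 1. Naive and cocktail CD44+CD62L+ libraries overlapped and were each higher than the other groups. The group sums of 53, 53, 14, 10 and 2 fragments carry the counting error of small numbers. With 3 libraries on each side, the smallest two-sided p of an exact permutation test is 0.1.

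**Figure D3:**
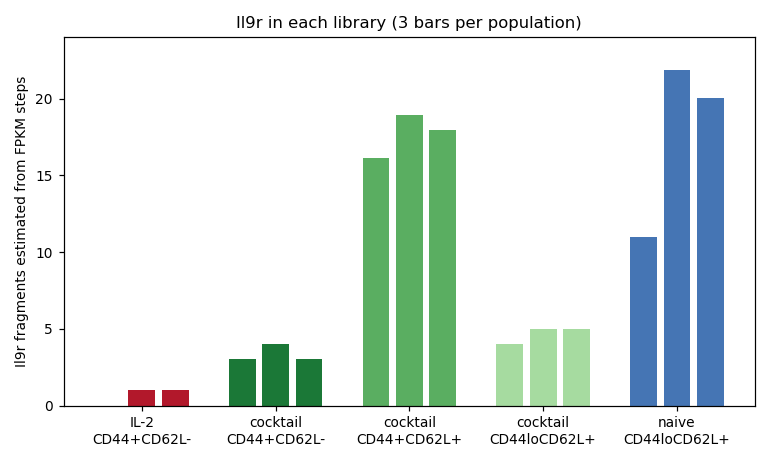
Estimated number of Il9r fragments (vertical axis, from 0) in each of 15 libraries, as 3 bars per sorted group (horizontal axis). Naive bars are at 11 to 22 and cocktail CD44+CD62L+ bars at 16 to 19, while the other groups reach at most 5.

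The make-up of the family differed between groups more than its total. Summed over the 8 genes, levels were 1425 FPKM in IL-2, 1123 in cocktail CD44+CD62L-, 1072 in cocktail CD44+CD62L+, 1081 in cocktail CD44loCD62L+ and 1142 in naive cells. In IL-2 cells Il2rb made up 52.6% of the sum, Il2rg 21.01%, Il2ra 16.5% and Il7r 2.26%. In naive cells Il2rg made up 50.4%, Il7r 23.3%, Il21r 10.5%, Il2rb 9.09% and Il2ra 0.0447%. Cocktail groups were led by Il2rg (43.4% to 47.0%) and Il2rb (22.3% to 27.6%), with Il7r at 7.74% to 11.5% and Il2ra at 4.31% to 6.47%. The mean ratio of Il2rb to Il2rg was 2.50 in IL-2 cells, 0.475 to 0.631 in cocktail groups and 0.180 in naive cells. Only in IL-2 cells did Il2rb exceed the gamma chain. These are shares of transcript, and surface protein was not measured.

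**Figure D4:**
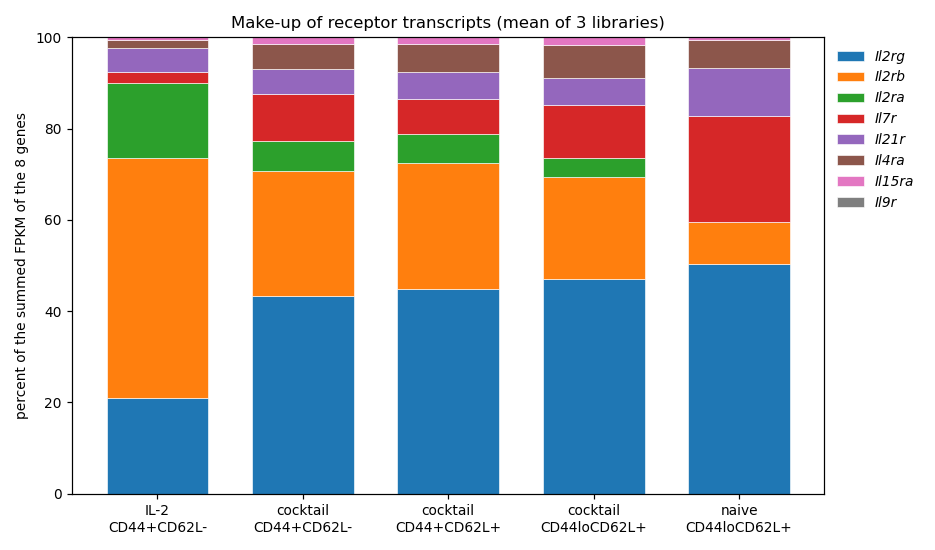
Percent of the summed FPKM of the 8 receptor genes (vertical axis, stacked to 100) held by each gene in each sorted group (horizontal axis), as means of 3 libraries. Il2rb is the largest band in IL-2 cells at 52.6%, and Il2rg is the largest in the cocktail groups at 43.4% to 47.0% and in naive cells at 50.4%.

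Cocktail cells were next compared with IL-2 cells, a question of culture with the CD44+CD62L- gate held the same in the first comparison. A call required a limma adjusted p under 0.05 and also a 2-fold change of FPKM + 1 in either direction, or 1 on the log2 scale. In each cocktail group, Il7r and Il4ra were called higher and Il2ra and Il2rb lower, 4 of the 7 genes tested. Over all genes tested, 7.85% were called in cocktail CD44+CD62L-, 8.16% in cocktail CD44+CD62L+ and 15.8% in cocktail CD44loCD62L+ cells against IL-2 cells. By adjusted p alone all 7 passed in each comparison, but so did 84.3%, 84.1% and 88.8% of all genes. The median log2 fold changes of the 7 genes were 0.70, 0.68 and 0.76, beside -0.01, 0.00 and -0.01 over all genes. The 3 comparisons share the IL-2 libraries. CD44loCD62L+ cells had the largest separations, with Il2ra 5.03-fold and Il2rb 3.11-fold below IL-2 cells (log2 fold changes -2.31 ± 0.02 and -1.63 ± 0.01) and Il4ra 3.06-fold above.

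Within the cocktail, none of the 7 genes was called between the sorted fractions. Few of all genes were called there either, so nothing about the receptors is read from that count. Against a background of 0.116% called genes, the CD44+CD62L+ and CD44+CD62L- cells had Il7r as the widest separation and the other 6 genes within -0.12 to 0.06 on the log2 scale. By adjusted p alone 5 passed, where 48.3% of all genes did. Between CD44loCD62L+ and CD44+CD62L+ cells 2.68% of genes were called and 73.4% passed adjusted p alone, as did 6 of the 7, with log2 fold changes of 0.58 for Il7r, 0.28 for Il4ra, -0.54 for Il2ra and -0.29 for Il2rb. Between CD44loCD62L+ and CD44+CD62L- cells 1.97% were called and 74.2% passed adjusted p alone, again with 6 of the 7, and Il2ra stood at -0.63 and Il4ra at 0.34. None of the 7 genes reached the minimum fold in these 3 comparisons, although 6, 6 and 7 of them had an unadjusted limma p under 0.05, in the same order.

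Cultured cells were also compared with naive cells, where activation, culture and its length changed together. Il2ra and Il2rb were called higher and Il7r lower in every cultured group, joined by Il4ra lower in IL-2 cells and Il15ra higher in cocktail CD44loCD62L+ cells. The percentages of all genes called were 31.3% for IL-2, 22.5% for cocktail CD44+CD62L-, 22.8% for cocktail CD44+CD62L+ and 17.7% for cocktail CD44loCD62L+ cells. Adjusted p alone was passed by 91.8%, 90.7%, 90.7% and 88.6% of all genes. Since Il2ra entered through the cultured groups, the member counts against naive cells are given as description. Il2rb rose by log2 fold changes of 2.84 in IL-2 and 1.56 in cocktail CD44+CD62L- cells, down to 1.21 in cocktail CD44loCD62L+ cells. The 4 comparisons share the naive libraries.

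**Figure D5:**
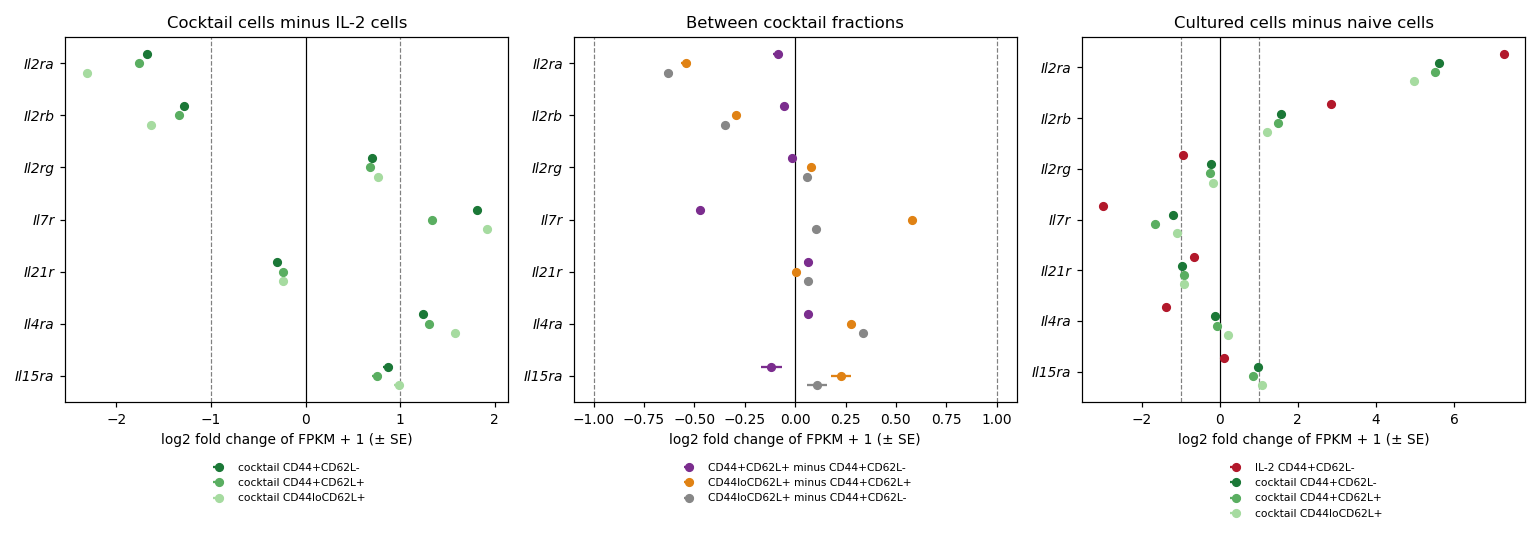
Log2 fold change of FPKM + 1 (horizontal axes, with SE bars often smaller than the points) for the 7 genes tested (vertical axes) between cocktail and IL-2 cells, between cocktail fractions, and between cultured and naive cells, with dashed lines at 1 in size. Il7r and Il4ra lie to the right and Il2ra and Il2rb to the left in the cocktail panel, no point passes a dashed line between cocktail fractions, and Il2ra in IL-2 cells reaches 7.29 in the naive panel.

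Of the 6 cytokine genes Il2, Il4, Il7, Il9, Il15 and Il21, none was listed at 1 FPKM or more in any group mean. All but Il15 were listed at 0 in at least 1 group, and because such zeros may come from estimation, they do not show absent transcription. Il15 was listed at 0.0847 FPKM in IL-2, 0.288 FPKM in naive and 0.725 FPKM in cocktail CD44loCD62L+ cells, and Il7 at 0.155 FPKM in IL-2 cells and 0 in naive cells. Of 3 further chains listed beside these receptors, only Crlf2, the partner of Il7r in the receptor for TSLP, was tested. It was at 42.6 FPKM in IL-2, 38.0 to 43.5 FPKM in cocktail and 21.3 FPKM in naive cells. Il13ra1, which can partner Il4ra, and Il13ra2 did not reach 1 FPKM.

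Among the JAK and STAT genes that these receptors signal through, Stat5a was at 16.8 FPKM in cocktail CD44+CD62L- and 16.6 FPKM in IL-2 cells, and Jak3, the kinase of the gamma chain, at 109 and 83.9 FPKM, neither of which was a call. Jak1, the kinase of the private chains, was lower in IL-2 than in naive cells, at 101 against 263 FPKM (log2 fold change -1.37 ± 0.01, limma adjusted p = 1.44e-20). Between cocktail CD44loCD62L+ and naive cells Jak1 stood at 139.7 and 263 FPKM (-0.91 ± 0.01), short of a call.

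The 8 genes for feedback inhibitors included 1 called between cocktail CD44+CD62L- and IL-2 cells, Socs2, lower at 13.7 against 51.5 FPKM (log2 fold change -1.83 ± 0.04, limma adjusted p = 6.36e-14), where 7.85% of all genes were called. Between IL-2 and naive cells, where 31.3% of all genes were called, 2 were higher and 2 lower: Cish, a STAT5-induced inhibitor, at 116 against 4.14 FPKM, Socs2 at 51.5 against 0.159, Socs3 at 8.20 against 74.8 and Socs5 at 1.23 against 7.12 FPKM. Between cocktail CD44loCD62L+ and naive cells, where 17.7% of all genes were called, 3 were higher, Cish, Socs1 and Socs2, and 1 lower, Socs3 at 29.6 against 74.8 FPKM. The list medians in these comparisons were 0.16, -0.24 and -0.30. Socs2 was under 1 FPKM in naive cells and passed the filter only through cultured groups, so its calls against naive cells are given as description.

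Among 20 genes known as targets of IL-2 and STAT5, cocktail CD44+CD62L- cells had 6 lower and 2 higher than IL-2 cells, with a list median of -0.31 beside -0.01 over all genes, of which 7.85% were called. The lower ones were Socs2, Pim1, Prdm1, Prf1, Ifng and Dusp5, among them the cytolytic protein perforin (Prf1, 11.7 against 82.3 FPKM, log2 fold change -2.72 ± 0.04) and Ifng (6.63 against 43.2 FPKM, -2.54 ± 0.08). Bcl2, an inhibitor of apoptosis, was the reverse, with means of 92.9 and 25.9 FPKM (1.80 ± 0.02). Gzmb, the other higher gene, was listed at 0 in all IL-2 libraries, as was the housekeeping gene Eef1a1 in every library, so the zero may reflect an estimation failure and is not turned into a fold. Against naive cells 11 of the 20 were higher and 2 lower in IL-2 cells, and 13 higher and 1 lower in cocktail CD44loCD62L+ cells, with list medians of 1.30 and 1.62. The lower genes in IL-2 cells were Mcl1 and Gzmb, so the zeros of Gzmb enter that count. Over all genes 31.3% and 17.7% were called in these comparisons. Socs2, Prdm1 and Ifng were under 1 FPKM in naive cells (0.159, 0.204 and 0.206 FPKM) and passed the filter only through cultured groups. They are among the 11, and Socs2 and Ifng are among the 13, so the counts against naive cells are given as description.

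In the PI3K, AKT and mTOR arm, 1 of 15 genes was called between cocktail CD44+CD62L- and IL-2 cells, Pik3ip1, an inhibitor of PI3K, higher at 25.3 against 9.93 FPKM. That share is near the 7.85% called over all genes, and the list's median log2 fold change was 0.01, so nothing is read from it about the arm. Pik3ip1 was also higher in cocktail CD44loCD62L+ than in CD44+CD62L+ cells (57.2 against 23.4 FPKM) and was lower in IL-2 than in naive cells (9.93 against 122 FPKM). Of 17 transcription factors reported to act on receptor genes, 5 were higher in cocktail CD44+CD62L- than in IL-2 cells and 0 lower: Tcf7, Bach2, Eomes, Ets1 and Runx1. Bach2 and Runx1 were under 1 FPKM in IL-2 cells (0.975 and 0.873 FPKM) and passed the filter only through other groups, so the count is given as description. Over all genes 7.85% were called in that comparison, and the list's median log2 fold change was 0.17. Tcf7, which encodes TCF-1, a factor of stem-like T cells, had means of 237 and 2.16 FPKM (log2 fold change 6.24 ± 0.04, limma adjusted p = 4.63e-19). Against naive cells 9 of the 17 were lower and 2 higher in IL-2 cells, where 31.3% of all genes were called. The lower genes were led by Tcf7 at 2.16 against 680 FPKM and Klf2 at 25.4 against 340 FPKM. Bach2 and Runx1 were among the 9, with the same limit. Foxo1, reported to drive Il7r, was at 15.7 FPKM in IL-2, 21.6 to 27.8 FPKM in cocktail and 58.7 FPKM in naive cells, and Gabpa, an ETS family factor also reported to act on Il7r, at 17.8 to 21.1 FPKM in all groups.

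Of 31 cytokine receptor genes outside the family 22 were tested, and 3 were higher and 1 lower in cocktail CD44+CD62L- than in IL-2 cells, with Ifnar2, a chain of the type I interferon receptor, at 58.6 against 23.7 FPKM. The lower gene was Il1rl1, the IL-33 receptor, at 0.359 against 7.40 FPKM, which passed the filter only through IL-2 cells. Of the 3 higher genes, 1 was under 1 FPKM in IL-2 cells and passed only through other groups. The count is therefore given as description. The share called over all genes was 7.85%, and the list's median log2 fold change was 0.36. Between IL-2 and naive cells 9 were higher and 8 lower, where 31.3% of all genes were called. Some of these, such as Il1rl1 (0.0283 FPKM in naive cells), were under 1 FPKM on 1 side and passed the filter only through other groups. That count is also given as description. Il12rb2 was at 44.1 against 1.97 FPKM and Il18rap at 45.1 against 3.01 FPKM, whereas Il6ra was at 0.0508 against 69.5 FPKM, having passed the filter only through naive cells, and Il6st, the shared chain of the IL-6 family, at 2.12 against 71.1 FPKM. Between fractions of the cocktail CD62L+ cells none of the 22 was called, where 2.68% of all genes were.

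Genes with the most similar pattern over the 15 libraries were ranked by Pearson r on log2(FPKM + 1) among 7164 genes, as a description, since the libraries fall into 5 groups of technical replicates. For Il7r they were Zdhhc20 (r = 0.999), Vps13a, Maml2, Msn and Zfp191 (r = 0.994). Zdhhc20, a protein palmitoyltransferase, was at 19.2 FPKM in IL-2, 27.8 to 33.9 in cocktail and 46.1 in naive cells. For Il2ra they were P2ry14, a receptor for UDP-glucose (57.6 FPKM in IL-2, 16.4 to 24.6 in cocktail and 0.382 in naive cells), Crmp1, Snrpe, Ptprj and St14 (r = 0.999). For Il21r they were Itgae (r = 0.997), Foxk1, Gtpbp1, Dhx30 and Rbm38 (r = 0.996). Itgae, the CD103 integrin chain, was at 2.31 FPKM in IL-2, 0.324 to 0.412 in cocktail and 39.0 in naive cells.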

How the data were processed

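RNA was extracted from the sorted cells with the PicoPure kit and made into Illumina libraries, per the labels' protocols. The submitters' processing notes name TopHat2 2.0.9, Cuffdiff 2.1.1 and the genome build mm10, and the FPKM values used are those the authors deposited, 1 column per library. Not given in the sources used here are the annotation, the settings and any use of strand.

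Values were taken to log2(FPKM + 1), a scale that understates changes of low genes, and 11242 genes were kept, those whose mean reached 1 FPKM in some group. The limma package, version 3.58.1 under R 4.3.3, was run on all 15 libraries (lmFit, then eBayes with trend) with group as the only term, for 10 comparisons. Benjamini-Hochberg adjustment ran over all genes tested within a comparison. This procedure was tested on simulated data built from cocktail CD44+CD62L- against IL-2 cells with 11242 genes: of 50 genes each, 49 were called at 3-fold, 50 at 8-fold, 49 at 20-fold and 0 at 1.5-fold, with 1 of 11042 unchanged genes called.

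The receptor genes, related lists and tests were chosen with earlier results of these data known. Named genes of a list were up to 4 whose mean reached 5 FPKM on either side, the 2 highest and the 2 lowest by fold change. Some full lists of called genes, and the levels of Foxo1, Gabpa, Foxp3, Cd4 and Cst3, were named after their values were seen. A gene of the related lists is not reported here. Similar genes were the 5 with the highest Pearson r among tested genes whose highest mean was 10 FPKM or more, leaving out predicted and small RNA genes. Fragments were estimated from the steps of 4544 genes under 0.3 FPKM in every library: of 22929 ratios, 83.2% were whole to within 0.1. Evenly spread ratios would give 20%. Ratios just above 1 counted as whole, and the scaling between libraries favours them, so the comparison does not establish single-fragment steps. In all 15 libraries 6039 entries had a value of 0.

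Results were recomputed with a pseudocount of 0.1 or 5, with the filter removed or set to 5 FPKM, after median-ratio scaling or quantile normalization, with only the 6 libraries compared in the fit, without the variance trend, with no fold minimum, with the replicate number as a block, and without each library in turn. Plots used matplotlib 3.10.9 (Python 3.11.15).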

Additional observations from a re-analysis of the deposited data

How the results depend on the processing

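Of 250 counts of receptor genes called under the alternatives, 241 stayed within 1.5 times the reported count, and the other 9 all came from dropping the fold minimum. By adjusted p alone 7 genes were called instead of 4 in each cocktail group against IL-2 cells, 5 instead of 0 between the CD44+ cocktail fractions, 6 instead of 0 between CD44loCD62L+ and each of them, and 7 instead of 3, 3 and 4 in the cocktail groups against naive cells. Of 1050 single fold changes 1039 kept their direction and side of the threshold. Il21r between cocktail CD44loCD62L+ and CD44+CD62L+ cells, at 0.00249 on the log2 scale, ran from -0.00708 to 0.0159 when single libraries were left out, so it has no direction. Il15ra moved across the minimum of 1: a pseudocount of 5 gave 0.82 against naive in CD44loCD62L+ cells, and a pseudocount of 0.1 gave 1.06 against IL-2 in CD44loCD62L+ and 1.05 against naive in CD44+CD62L- cells. The same Il15ra values became 1.03 without IL-2 replicate 1 and 1.03 without naive replicate 3. Quantile normalization, which moved the median of all genes by -0.104 and -0.109 in the CD44+CD62L- and CD44+CD62L+ cells against naive, brought Il2rg in IL-2 cells (-1.46) and Il21r in those cocktail cells (-1.11 and -1.03) past it. Under it, the share of called genes that were higher than in naive cells went from 63.0% to 52.3% in cocktail CD44+CD62L+, from 65.5% to 55.4% in CD44loCD62L+ and from 56.3% to 48.4% in IL-2 cells, where most calls then were lower. The pseudocount set how many genes were called overall: against IL-2 cells 882 and 917 in the CD44+ cocktail groups became 1393 and 1429 at 0.1 and 379 and 387 at 5, and 1771 in CD44loCD62L+ cells became 911 at 5. Between cocktail fractions 13, 301 and 221 became 41, 495 and 463 at 0.1 and 7, 178 and 94 at 5. Against naive cells 3519, 2530, 2564 and 1993 became 2038, 1393, 1412 and 1014 at 5. Replicate numbers did not pair libraries: deviations of 30 pairs with the same number correlated at -0.238 to 0.184 (median -0.014), and 2 exceeded 0.1. With the replicate block, counts of receptor genes called were 4, 4 and 4 against IL-2, 0, 0 and 0 within the cocktail and 4, 3, 3 and 4 against naive cells, equal to those without it. Depth in fragments is unknown apart from relative steps, which limits Il9r most.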
